A study of Sus scrofa with 3 samples.

Results

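The solute carrier genes described here are the 121 gene symbols on the array that begin with SLC or SLCO followed by a digit, read by 180 of 23935 probe sets and drawn from 6765 named genes. SLC34A2 and SLC15A2 were left out. The symbols cover 118 carriers of 37 families and 3 regulators named after a carrier, SLC2A4RG, SLC9A3R1 and SLC9A3R2. By the usual location of each family, 77 genes belong to plasma membrane families, 21 to the mitochondrial family SLC25 and 20 to families of other organelles.

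Lung RNA was measured on 3 Affymetrix porcine arrays, a chip that reads each transcript with probe sets near its 3' end. The operated lung is the left lung of a minipig, a small breed of pig, after transient occlusion of the left pulmonary artery and reperfusion, without involvement of the bronchus. The right lung, on the side not occluded, of a minipig that underwent ischemia-reperfusion is called non-operated, and sham is lung tissue of a minipig with a sham operation. The sources used here do not give strain, age, sex or any pooling of animals, nor whether both lungs after ischemia-reperfusion came from 1 animal. Each group is 1 array, so no difference has a replicate check, a p-value or an error between animals. Precision is limited by the number of arrays. Values are log2 MAS5 signals. A ratio is a difference of log2 signals after values under the array median, about 7.31 to 7.33, were raised to it, and such a ratio is a lower bound. A gene counts as higher or lower at 2-fold, which is 1 on this scale. Both lungs were set against the same sham array, so their ratios share its error. The pooled SD of ratios between probe sets of the same gene was 0.44 for either lung against sham and 0.23 between the lungs over all named genes. This is the only internal measure of error, and it does not cover animals or RNA preparations.

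Solute carriers are membrane proteins that move small molecules, ions, metals and vitamins across membranes by facilitated diffusion, exchange or coupling to an ion gradient. The sodium gradient that drives many of them is kept by the sodium potassium pump. In the lung, carriers supply amino acids, sugars and surfactant precursors to the epithelium, clear solutes from the airspace and control metals in macrophages. The SLC25 family sits mainly in the inner mitochondrial membrane and exchanges nucleotides, phosphate and metabolites with the cytosol. The roles stated below for each gene are those known in human or mouse.

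Of 6 lung epithelial markers on the array, all lay above the floor in the operated and the non-operated lung and 5 in sham, where AGER, an alveolar type 1 marker, was under it. SFTPC, the surfactant protein C gene, had log2 signals of 14.52 in the operated lung, 14.56 in the non-operated lung and 14.44 in sham. SFTPB, the surfactant protein B gene, was 2.35-fold higher in the operated and 1.08-fold higher in the non-operated lung. The water channel gene AQP5 was 2.08-fold higher in the operated and 2.59-fold higher in the non-operated lung. AGER was at least 1.75-fold higher in the operated lung and at least 1.92-fold higher in the non-operated lung. Of the other surfactant protein genes, SFTPA1 had ratios of 0.10 (operated) and -0.16 (non-operated) and SFTPD of 0.67 (operated) and 0.77 (non-operated). All 4 skeletal and heart muscle markers lay at or below the floor on the 3 arrays, as did 3 of 4 liver markers. The remaining liver marker, APOA1, was above it at 10.28 (operated), 10.38 (non-operated) and 9.87 (sham). The RNA is from whole tissue, so fewer cells of a type and less RNA per cell cannot be told apart.

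Of the 121 genes, 76 lay above the floor on at least 1 array, 58 on every array and 45 on none. The share above the floor on at least 1 array was 62.8% for solute carriers, beside 76.3% for all named genes. It was 53.2% for plasma membrane families, 85.7% for SLC25 and 70% for families of other organelles. Of the 45 genes below the floor, 10 fell in the amino acid group and 7 in the sugar group. These groups follow families, so a member can carry another substrate. The 45 genes include SLC6A14, SLC6A4, SLC3A2, SLC4A2, SLC4A4, SLC16A3, SLC29A1 and the sole peptide carrier SLC15A1, and no ratio is given for any of the 45.

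In the operated lung against sham, 73 solute carrier genes could be compared, 60 of them above the floor on both arrays. At least 2-fold higher signals were found for 7 of them and lower signals for 2, together 12.3%. Among all named genes compared, 8.65% were higher and 8.79% lower, together 17.4%. The median log2 ratio was 0.01 for the solute carriers and -0.11 for all named genes. In the non-operated lung against sham, 7 of 73 genes were higher and 5 lower, together 16.4%, beside 8.96% higher and 8.55% lower, together 17.5%, of all named genes. The medians were -0.02 for the solute carriers and -0.10 for all named genes. When genes were counted by their mean signal over the 3 arrays instead, 13.6% and 18.2% of 66 solute carriers were beyond 2-fold in the operated and the non-operated lung, beside 17.8% and 17.9% of all named genes. The shares of solute carriers were therefore near or under the background. Over both comparisons 13 genes passed the threshold, and the plot of their signals by array shows each one.

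**Figure D1:**
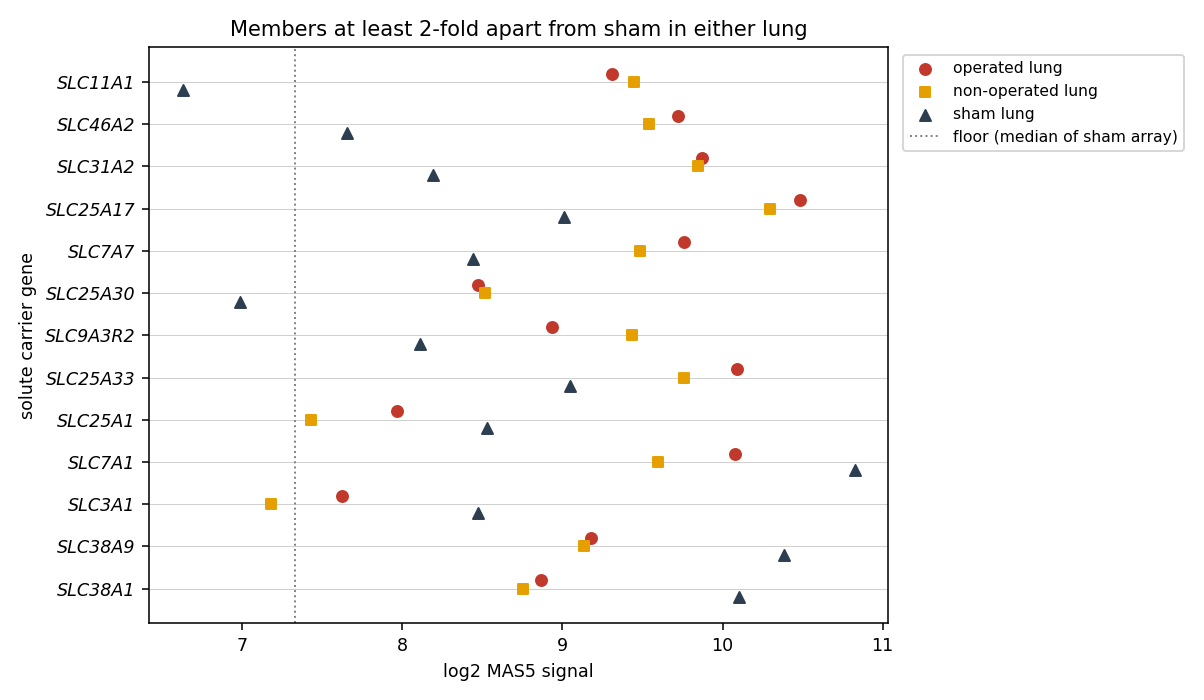
Log2 MAS5 signal (x axis) of the 13 solute carrier genes (y axis) that were at least 2-fold apart from sham in either lung, with 1 point per array for the operated lung, the non-operated lung and sham. SLC3A1 is under the floor in the non-operated lung, and SLC11A1 and SLC25A30 are under it in sham.

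Carriers of metals included 2 of the genes higher in each lung, SLC11A1 and SLC31A2. SLC11A1, which pumps divalent metals out of the phagosomes of macrophages and neutrophils, had log2 signals of 9.31 in the operated lung, 9.45 in the non-operated lung and 6.63 in sham. Its sham signal was under the floor, so it was at least 3.95-fold higher in the operated lung and at least 4.34-fold higher in the non-operated lung. SLC31A2, a relative of the copper importer, had signals of 9.87 (operated), 9.85 (non-operated) and 8.19 (sham). It was 3.21-fold higher in the operated and 3.16-fold higher in the non-operated lung. A further SLC31A2 probe set, below the floor on all arrays, read 6.30 (operated), 6.43 (non-operated) and 2.64 (sham). The high-affinity copper importer SLC31A1 was on the same side without reaching 2-fold. It read 10.43 in the operated lung, 10.41 in the non-operated lung and 9.60 in sham. A further SLC31A1 probe set, below the floor on all arrays, read the other way at 4.84 (operated), 5.30 (non-operated) and 5.81 (sham).

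Zinc, iron and magnesium carriers lay closer to sham than SLC11A1 and SLC31A2. SLC30A3, a zinc carrier of vesicles, had ratios of 0.78 in the operated and 0.55 in the non-operated lung. SLC39A14, an importer of zinc and of iron not bound to transferrin, was on the other side at -0.76 in the operated lung and -0.90 in the non-operated lung. The remaining carriers compared were SLC11A2, which moves iron out of endosomes into the cytosol, the zinc carriers SLC30A5, SLC39A1, SLC39A4, SLC39A5 and SLC39A7 and the magnesium carrier SLC41A1. By the brightest probe set of each gene, their ratios against sham ran from -0.28 for SLC39A7 to 0.54 for SLC41A1, both in the non-operated lung. Within this range SLC39A5 in the operated lung (0.29) and SLC39A4 in the non-operated lung (0.18) are lower bounds. Neither of them had a ratio in the other lung. A further SLC30A5 probe set, above the floor on every array, was at 0.92 (operated) and 0.60 (non-operated). A further SLC39A1 probe set, also above it, was at 0.47 (operated) and 0.17 (non-operated). Of 11 metal carriers compared in each lung, 2 were higher and 0 lower, beside 8.65% and 8.96% of all named genes higher in the operated and the non-operated lung, with medians of 0.29 in the operated and 0.18 in the non-operated lung.

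Summed signals of markers listed for macrophages and neutrophils were higher in both lungs than in sham, as was SLC11A1. Of 5 macrophage markers other than SLC11A1, 4 were named on the array. Their summed linear signal was 15500 in the operated lung, 14896 in the non-operated lung and 3337 in sham. For the 3 of 5 neutrophil markers on the array it was 6726 (operated), 8242 (non-operated) and 1052 (sham). These 3 are the calgranulin genes S100A8, S100A9 and S100A12, which monocytes express as well. CSF3R and CXCR2, also listed for neutrophils, were not on the array, so these values do not set neutrophils apart from monocytes. None of these markers was at or below the floor on every array, although MARCO, a macrophage scavenger receptor, was above it in the non-operated lung alone. Their part in the SLC11A1 result was not tested.

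Amino acid carriers contained all the genes that were lower in the operated lung. SLC38A1, a sodium-coupled importer of glutamine and other neutral amino acids, had signals of 8.87 in the operated lung, 8.75 in the non-operated lung and 10.10 in sham. It was 2.35-fold lower in the operated and 2.54-fold lower in the non-operated lung. SLC38A9, a lysosomal carrier that senses arginine for the growth kinase complex mTORC1, had signals of 9.18 (operated), 9.13 (non-operated) and 10.39 (sham). It was 2.31-fold lower in the operated and 2.39-fold lower in the non-operated lung. Of the 3 SLC38 genes on the array, the third, SLC38A10, lay on the other side at 0.26 (operated) and 0.45 (non-operated).

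SLC7A1, the main importer of arginine and other cationic amino acids, had signals of 10.08 in the operated lung, 9.60 in the non-operated lung and 10.83 in sham. That is 1.68-fold lower in the operated lung and 2.34-fold lower in the non-operated lung. SLC3A1, the heavy chain of a cystine and dibasic amino acid carrier of kidney and intestine, read 7.62 (operated), 7.18 (non-operated) and 8.47 (sham). It was 1.81-fold lower in the operated lung and at least 2.24-fold lower in the non-operated lung. A further SLC3A1 probe set, below the floor on all arrays, read the other way, with 6.82 in the operated lung, 7.11 in the non-operated lung and 5.95 in sham. The glutamate carrier SLC1A2 was above the floor in sham alone, with bounds of -0.86 (operated) and -0.87 (non-operated).

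SLC7A7 was the amino acid carrier on the higher side of the threshold. It is the light chain of a carrier that exports cationic amino acids in exchange for neutral ones, and it is known in macrophages. Its signals were 9.76 in the operated lung, 9.48 in the non-operated lung and 8.44 in sham, which is 2.49-fold higher in the operated and 2.06-fold higher in the non-operated lung. Its heavy chain partner SLC3A2 was below the floor on all arrays at 7.24 (operated), 6.70 (non-operated) and 6.39 (sham). The creatine carrier SLC6A8 was at 0.48 (operated) and 0.64 (non-operated) and the glutamine carrier SLC1A5 at 0.10 (operated) and 0.26 (non-operated). Of 9 amino acid carriers compared in each lung, 1 was higher and 2 lower in the operated lung, and 1 was higher and 4 lower in the non-operated lung. The background is the 8.65% higher and 8.79% lower of all named genes in the operated lung, and 8.96% and 8.55% in the non-operated lung. The medians were -0.75 (operated) and -0.87 (non-operated), beside -0.11 and -0.10 for all named genes. B and T cell markers were lower in the same lungs. The summed linear signal of the 5 of 8 on the array was 1041 in the operated lung, 1124 in the non-operated lung and 5165 in sham, and their part in these amino acid carrier values was not tested.

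The vitamin and nucleoside group turned on SLC46A2, a carrier known from thymic stroma. Its signals were 9.72 in the operated lung, 9.54 in the non-operated lung and 7.66 in sham, which is 4.18-fold (operated) and 3.70-fold (non-operated) higher. The proton-coupled folate carrier SLC46A1 was near the floor at 7.59 (operated), 7.31 (non-operated) and 7.26 (sham). SLC46A3, a lysosomal carrier, read 8.26 in the operated lung, 7.95 in the non-operated lung and 8.90 in sham, 1.56-fold (operated) and 1.94-fold (non-operated) lower. The 6 other genes of the group, among them the ascorbate carriers SLC23A1 and SLC23A2 and the nucleoside carrier SLC29A1, lay below the floor.

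**Figure D2:**
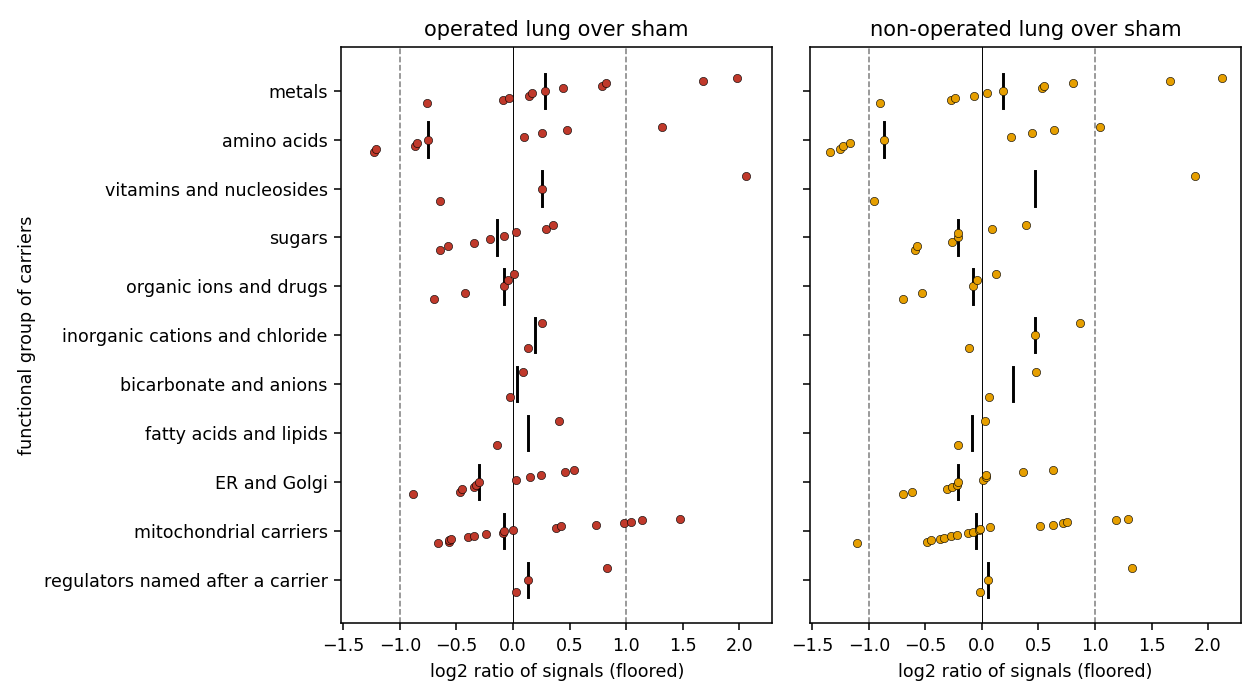
Log2 ratio of floored signals (x axis) for each solute carrier gene compared, by functional group (y axis), with the operated lung over sham on the left and the non-operated lung over sham on the right. Each point is 1 gene, black bars are medians and dashed lines mark 2-fold. Amino acid carriers have medians of -0.75 (operated) and -0.87 (non-operated), and the highest points belong to SLC46A2 among vitamin carriers and SLC11A1 among metal carriers.

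SLC25 had members beyond 2-fold on both sides of sham. SLC25A17, the peroxisomal member of the family, which carries coenzyme A and other nucleotide cofactors, had signals of 10.49 in the operated lung, 10.30 in the non-operated lung and 9.01 in sham. It was 2.79-fold higher in the operated and 2.44-fold higher in the non-operated lung. SLC25A30, described as a kidney mitochondrial carrier, read 8.47 (operated), 8.52 (non-operated) and 6.99 (sham). With sham under the floor, it was at least 2.21-fold higher in the operated and at least 2.28-fold higher in the non-operated lung.

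SLC25A33, which carries pyrimidine nucleotides into mitochondria, read 10.09 in the operated lung, 9.76 in the non-operated lung and 9.05 in sham. It was 2.06-fold (operated) and 1.64-fold (non-operated) higher. A further SLC25A33 probe set, below the floor on all arrays, read 2.74 (operated), 5.42 (non-operated) and 4.44 (sham). SLC25A1, which exports citrate for fatty acid synthesis, read 7.96 (operated), 7.43 (non-operated) and 8.53 (sham). This gene was 1.48-fold lower in the operated lung and 2.14-fold lower in the non-operated lung. Just inside 2-fold, the oxodicarboxylate carrier SLC25A21 was at 0.98 (operated) and 0.75 (non-operated), and the carnitine-acylcarnitine carrier SLC25A20, which brings fatty acids in for oxidation, was at 0.73 (operated) and 0.63 (non-operated).

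The carriers that serve ATP synthesis stayed within 2-fold of sham. SLC25A6, an ADP/ATP carrier, read 12.65 in the operated lung, 12.83 in the non-operated lung and 13.32 in sham, for ratios of -0.66 (operated) and -0.49 (non-operated). SLC25A4 and SLC25A5, which encode closely similar ADP/ATP carriers, were at -0.24 and -0.09 in the operated lung and at -0.12 and -0.33 in the non-operated lung. Whether the probe sets of these 3 genes cross-hybridise was not tested. The phosphate carrier SLC25A3 read 12.84 in the operated lung, 12.82 in the non-operated lung and 12.84 in sham. The calcium-regulated aspartate-glutamate carrier SLC25A12 was at -0.55 (operated) and -0.45 (non-operated).

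Carriers linked to heme synthesis pointed both ways. SLC25A37, the mitochondrial iron importer mitoferrin, was at -0.57 in the operated and -0.22 in the non-operated lung. SLC25A38, which brings in glycine for heme, was at 0.43 (operated) and 0.51 (non-operated), and SLC25A39, a glutathione importer, at -0.40 (operated) and -0.37 (non-operated). None of these 6 ratios reached 2-fold, and 4 of them were smaller than the SD of 0.44 between probe sets. A further SLC25A37 probe set, above the floor in sham alone, was at -0.92 (operated) and -0.57 (non-operated) without a floor.

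Side by side, plasma membrane families and SLC25 differed little in their medians. In the operated lung against sham, plasma membrane families had a median log2 ratio of 0.01 over 39 genes, with 4 higher and 2 lower, and SLC25 had -0.08 over 17 genes, with 3 higher and 0 lower. In the non-operated lung the medians were -0.01 over 38 genes, with 4 higher and 4 lower, and -0.05 over 18 genes, with 2 higher and 1 lower. Higher and lower genes together were 15.4% of plasma membrane and 17.6% of SLC25 genes in the operated lung, beside 17.4% of all named genes. In the non-operated lung these shares were 21.1% and 16.7%, beside 17.5% of all named genes. Families of other organelles had a median of -0.14 in either lung, and 0 of 14 genes were beyond 2-fold, beside the same background. SLC25 without the peroxisomal SLC25A17 had a median of -0.08 in both lungs. Without 8 genes of plasma membrane families whose proteins are known inside the cell, among them SLC11A1 and SLC38A9, the plasma membrane medians were 0.03 (operated) and -0.01 (non-operated). With 1 array per group these differences between families have no test.

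**Figure D3:**
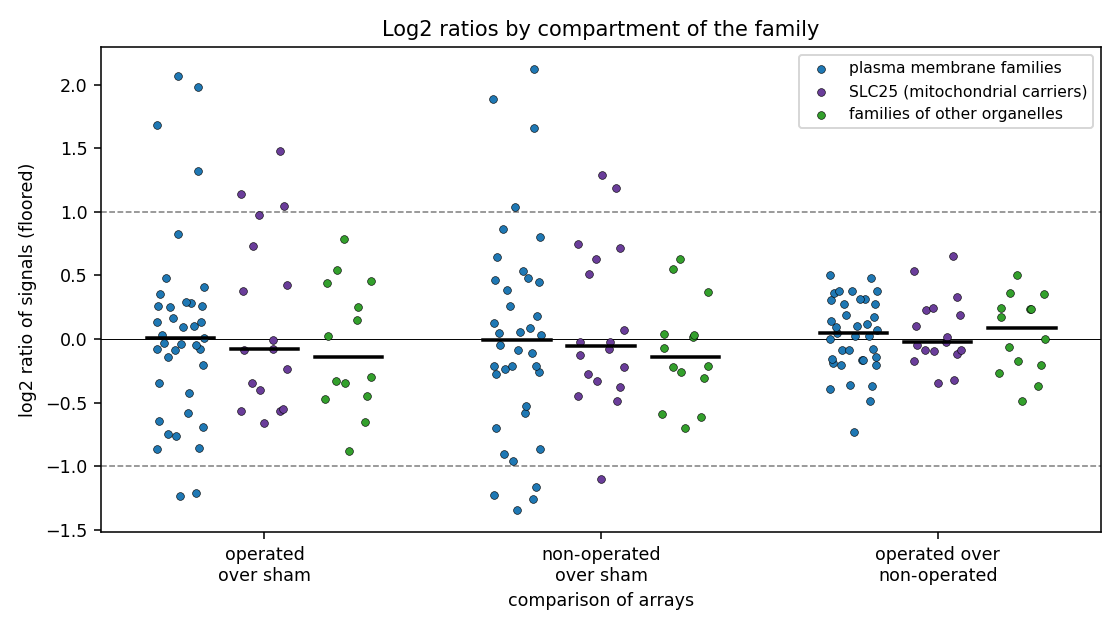
Log2 ratio of floored signals (y axis) for genes of plasma membrane families, SLC25 and families of other organelles in the 3 comparisons of arrays (x axis). Points are genes, black bars are medians and dashed lines mark 2-fold. Medians lie between -0.14 and 0.09, and no point lies beyond 2-fold between the operated and the non-operated lung.

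After flooring, 0 sugar carriers were beyond 2-fold, beside 17.4% (operated) and 17.5% (non-operated) of all named genes. Of their ratios, 4 of 8 in the operated and 2 of 7 in the non-operated lung were bounds. A bound does not place a gene within 2-fold. SLC2A3, a high-affinity glucose carrier, read 10.40 in the operated lung, 10.76 in the non-operated lung and 10.37 in sham. SLC2A1, the glucose carrier of most tissues, was above the floor in sham alone, with 6.83 (operated), 6.74 (non-operated) and 7.89 (sham), so that it was at least 1.49-fold lower in either lung. SLC2A12 was above the floor in the operated lung alone at 7.69, with 7.18 in the non-operated lung and 5.98 in sham. Without a floor, SLC2A1 was at -1.05 (operated) and -1.15 (non-operated), and SLC2A12 at 1.70 (operated) and 1.20 (non-operated). SLC50A1, a sugar carrier of the Golgi, was at -0.65 (operated) and -0.59 (non-operated), and SLC5A6, a vitamin carrier counted here with its family, at -0.35 (operated) and -0.26 (non-operated). Over 8 sugar carriers in the operated and 7 in the non-operated lung, the medians were -0.14 (operated) and -0.21 (non-operated).

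ER and Golgi carriers, a group that holds nucleotide sugar carriers and carriers of other substrates, had 0 of 11 genes beyond 2-fold in either lung. The share of all named genes was 17.4% in the operated and 17.5% in the non-operated lung. The medians of the group were -0.30 (operated) and -0.21 (non-operated). SLC35B3, which carries the sulfate donor into the Golgi, was the lowest in the operated lung at -0.88, with -0.62 in the non-operated lung. SLC35F5 read 11.14 (operated), 10.97 (non-operated) and 10.60 (sham). SLC33A1, the acetyl-CoA carrier of the ER, had 3 probe sets above the floor that disagreed. Without a floor, in the non-operated lung the brightest was at 0.63 and the others at -0.81 and -0.79, while in the operated lung the brightest was at 0.46 and the others at -0.25 and -0.27.

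Carriers of organic ions and drugs were near or below sham. SLCO3A1, an organic anion carrier that also takes up prostaglandins, read 9.76 in the operated lung, 9.76 in the non-operated lung and 10.45 in sham, 1.62-fold lower in either lung. SLCO2B1, known for uptake of sulfated steroids and drugs, was at -0.08 (operated) and 0.12 (non-operated), and the carnitine carrier SLC22A5 at 0.01 (operated) and -0.08 (non-operated). SLC22A2, an organic cation carrier of the kidney, was listed at 3.85 in the operated lung, 0 in the non-operated lung and 7.36 in sham. As the sham value was barely above the floor, the bound on its ratio was -0.05 in either lung.

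Few carriers of inorganic ions, bicarbonate and lipids were above the floor. SLC12A4, a potassium chloride cotransporter that regulates cell volume, read 7.46 in the operated lung, 8.19 in the non-operated lung and 6.64 in sham. With sham under the floor, it was at least 1.10-fold higher in the operated and at least 1.82-fold higher in the non-operated lung. SLC8B1, which is known as a mitochondrial sodium calcium exchanger, was at 0.25 (operated) and -0.11 (non-operated), and the anion exchanger SLC26A6 at 0.09 (operated) and 0.48 (non-operated). The choline carrier genes SLC44A2 and SLC44A4 ran from -0.21 to 0.41 over the lungs. SLC16A13, a monocarboxylate carrier, was under the floor on each array at 7.11 (operated), 6.97 (non-operated) and 7.14 (sham). SLC17A1, a phosphate and urate carrier of kidney and liver, was under it at 4.42 (operated), 2.39 (non-operated) and 1.42 (sham), and SLC15A1 at 3.03 (operated), 2.53 (non-operated) and 2.19 (sham).

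Of the 3 regulators, SLC9A3R2, a scaffold that ties ion carriers and receptors to the cytoskeleton, read 8.94 in the operated lung, 9.43 in the non-operated lung and 8.11 in sham. It was 1.78-fold (operated) and 2.50-fold (non-operated) higher. The related scaffold SLC9A3R1 was at 0.13 (operated) and -0.01 (non-operated), and SLC2A4RG, a transcription factor of the glucose carrier gene SLC2A4, at 0.03 (operated) and 0.05 (non-operated). Endothelial markers were higher in the same lungs, with a summed linear signal over 6 of 6 of 12841 in the operated lung, 13382 in the non-operated lung and 5152 in sham. KDR, a defining endothelial receptor, was at or below the floor on each array, and the part of these cells in the SLC9A3R2 value was not tested.

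Between the operated and the non-operated lung, 0 of 71 solute carrier genes were beyond 2-fold, beside 0.243% of all named genes, 0.0607% higher and 0.182% lower. The median ratio was 0.02 and the middle 50% of genes lay between -0.16 and 0.24. SLC12A4 was lowest at -0.73. SLC25A11, the oxoglutarate carrier, was highest with a bound of 0.65, from 7.96 in the operated lung and 6.84, under the floor, in the non-operated lung. Of the genes beyond 2-fold against sham, SLC25A1 was at 0.53, SLC7A1 at 0.48 and SLC9A3R2 at -0.49 between the lungs, and the other 10 lay between -0.14 and 0.33.

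Among the genes read by several probe sets, 11 had at least 2 above the floor, 24 probe sets in all. Both genes of this kind that were beyond 2-fold against sham, SLC38A1 and SLC38A9, had all such probe sets on the same side in each lung. The further SLC38A1 probe set was at -0.96 (operated) and -1.02 (non-operated) and the further SLC38A9 probe set at -1.25 (operated) and -1.003 (non-operated). The pooled SD between probe sets of the same solute carrier gene was 0.24 in the operated and 0.39 in the non-operated lung against sham. The other 11 genes beyond 2-fold rest on 1 probe set above the floor. Among genes within 2-fold, SLC33A1 had probe sets on both sides of 0 in both lungs. In the non-operated lung alone, the brightest and the further probe set were at -0.07 and 0.60 for SLC30A5. They were at -0.24 and 0.17 for SLC39A1 and at 0.37 and -0.05 for SLC35F5.

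**Figure D4:**
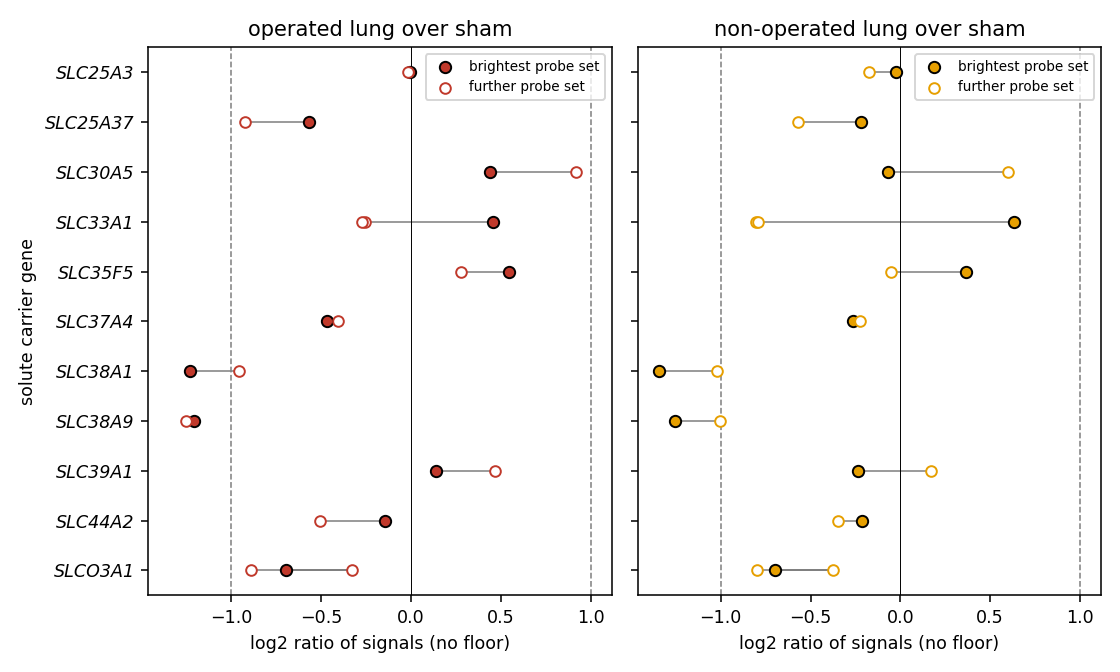
Log2 ratio without a floor (x axis) for each probe set above the floor on any array of the 11 solute carrier genes (y axis) with several such probe sets, operated lung over sham on the left and non-operated lung over sham on the right. Filled points are the brightest probe set, open points the others, and dashed lines mark 2-fold. SLC38A1 and SLC38A9 are lower in all their probe sets. SLC33A1 has probe sets on both sides of 0 in both lungs, and SLC30A5, SLC35F5 and SLC39A1 have them in the non-operated lung alone.

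A list of partners of the carriers, such as pump subunits, binding proteins and carriers with other names, had 42 of 71 genes on the array. In the operated lung 7 of 32 were at least 2-fold higher and 0 lower, and in the non-operated lung 6 of 31 were higher and 1 lower. Among all named genes, 8.65% were higher and 8.79% lower in the operated lung, and 8.96% higher and 8.55% lower in the non-operated lung. The list held genes chosen with their values known, so nothing is read from its counts. FLVCR2, a choline carrier also described for heme and listed under a symbol outside the SLC scheme, was 2.70-fold higher in the operated and 2.72-fold higher in the non-operated lung, with signals of 10.13 (operated), 10.14 (non-operated) and 8.69 (sham). TF, the iron carrier transferrin, was 5.12-fold (operated) and 5.47-fold (non-operated) higher, beside ferritin chains FTH1 and FTL within 0.29 of sham. HMOX1, which frees iron from heme, was at 3.65 (operated) and 3.83 (non-operated) and the metallothionein MT-2B at 1.93 (operated) and 1.36 (non-operated), and both were listed with their values known.

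Other partners included SGK1, a kinase that raises the surface level of sodium channels and carriers, which was 2.74-fold (operated) and 2.64-fold (non-operated) higher. ABCA1, a cholesterol exporter, was at 1.93 (operated) and 1.89 (non-operated), and ABCD3, a peroxisomal importer of fatty acyl-CoA, at 1.16 (operated) and 0.87 (non-operated). MTCH2, a distant SLC25 relative of the outer mitochondrial membrane, was at -0.91 in the operated and -1.31 in the non-operated lung. The related MTCH1 was on the other side within 2-fold, at 0.74 (operated) and 0.99 (non-operated). The sodium potassium pump subunits ATP1B1 and ATP1B3 were at 0.73 and 0.43 in the operated lung and at 0.87 and 0.51 in the non-operated lung. The pyruvate carrier subunits MPC1 and MPC2 and the outer membrane channels VDAC1, VDAC2 and VDAC3 ran from -0.71 to 0.73.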

How the data were processed

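The authors deposited log2 values, 1 per probe set and array, made with MAS5 per the submitters' processing notes; the log2 scale was read from the values, and the sources used here give neither the MAS5 version nor its target. The means of linear signal, trimmed at both ends, were 497.2, 497.0 and 496.4 for the operated, non-operated and sham arrays, so no further scaling was applied. Groups came from the sample titles. Of 23999 probe sets, 64 controls were left out. The platform annotation gave 1 gene to 10069 probe sets, several to 198 and none to 13668. Of the probe sets with several genes, 5 list a solute carrier and were not used. For 178 of the 180 solute carrier probe sets the gene identifier matched RefSeq's Sscrofa11.1 table, with 0 changes of symbol. The brightest probe set stood for a gene, signals were floored at the array median, and signals of different genes were not compared. The table had 0 further value columns. Counting code was tested on simulated data (Python 3.11.15, pandas 2.3.3). The genes, lists and families were chosen with earlier results of these data known. Genes named by rule were those beyond 2-fold with a signal at least 2 times the floor (at most 30), the brightest of each functional group and the extremes of SLC25; others were chosen with their values seen. No sequences were used.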

Additional observations from a re-analysis of the deposited data

How the results depend on the processing

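With 1 array per group, no test was made and no paired analysis was possible because each group is 1 array and whether any 2 arrays come from 1 animal is not stated. Of 9 alternatives, the choice of floor moved the counts most. Without a floor, 14 genes were higher and 13 lower in the operated lung against sham, 16 and 13 in the non-operated lung, and 9 and 7 between the lungs. These are 22.3%, 24.0% and 13.2% of solute carriers, beside 24.0%, 24.6% and 8.13% of all named genes. At a floor on the 25th percentile, 7 were lower in the operated lung, 11 higher and 9 lower in the non-operated lung and 2 higher between the lungs. Higher and lower genes together were 15.4%, 19.0% and 1.90% of solute carriers in these comparisons, beside 19.1%, 19.4% and 1.79% of all named genes. At a floor on the 75th percentile, where fewer genes are compared, 1 was higher and 1 lower in the operated lung and 1 and 2 in the non-operated lung, which is 6.45% and 10.7%, beside 13.1% and 13.4% of all named genes. With the mean of all probe sets, 4 were higher and 1 lower in the operated lung and 3 lower in the non-operated lung, and 8.33% and 13.1% were beyond 2-fold in these lungs, beside 16.4% and 16.4% of all named genes. Medians of plasma membrane families changed sign around 0. With the mean of all probe sets they were -0.046 in the operated lung and -0.085 between the lungs. In the non-operated lung they were 0.046 without a floor, 0.16 at the 75th percentile, 0.024 with a pseudocount of 64, 0.018 after quantile normalization, 0.095 after centring and 0.037 without the probe sets whose names mark sequence shared between transcripts. SLC25 medians after centring, which adds 0.11 in the operated and 0.10 in the non-operated lung, were 0.034 and 0.052, and between the lungs they were 0.019 without a floor and 0.10 at the 75th percentile. Except where the floor, the compared genes or centring sets the value, the cause was not tested. Ratios of SLC25A17 and SLC38A9 in both lungs, and of SLC7A1 in the non-operated lung, stayed beyond 2-fold under all 9 alternatives. SLC25A30 in both lungs stayed beyond it in the 8 alternatives that gave a value, and was not compared at the 75th percentile floor. SLC3A1 in the non-operated lung stayed beyond it in the 7 that gave a value. An alternative without a value does not show that the ratio held. The 75th percentile floor took SLC11A1, SLC46A2, SLC31A2, SLC7A7, SLC38A1, SLC25A33 and SLC9A3R2 under 2-fold. Averaging all probe sets gave 0.76 and 0.81 for SLC31A2, -0.89 and -0.73 for SLC38A1 and 0.12 for SLC7A7 in the non-operated lung. A pseudocount gave 0.96 for SLC25A33 in the operated lung, and 0.92 for SLC7A7 and -0.88 for SLC25A1 in the non-operated lung. SLC25A1 also missed 2-fold after centring. SLC25A11 reached 1.12 between the lungs without a floor.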
